A study of Mus musculus with 12 samples.

Results

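The genes examined were those of MHC class II presentation, the route by which antigen-presenting cells show peptides from the endosome to CD4 T cells. They were taken by symbol, from a list chosen with earlier results of these data known: H2-Aa, H2-Ab1, H2-Eb1, Cd74, Ciita, H2-DMa and H2-DMb1. All 7 were matched to Ensembl identifiers in the count files, 7 of 56748 genes, and all 7 were among the 18438 genes with enough reads to be tested.

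Donor cells carried both transgenes of the SCLtTA/BCR-ABL (DTG) mouse, in which the SCL promoter drives a tetracycline-controlled activator of human BCR::ABL1, so that the oncogene is silent while tetracycline (TET) is given. Frozen BM cells (CD45.2) pooled from DTG donors of both sexes were transplanted into B6.SJL recipients (CD45.1) aged 8 to 12 weeks, which had been irradiated with 2 doses of 4.25 Gy and which all received TET at first. BCR::ABL1− mice (CTRL, labelled normal) stayed on TET, and BCR::ABL1+ mice (CML 2wk, labelled CML and leukemia) were without TET for 2 weeks. Bulk RNA-seq was made from sorted CD45.2+ Lin-Sca+Kit+ (LSK) BM cells, which hold the haemopoietic stem cells and early multipotent progenitors, with 6 libraries in each group. Both groups thus shared the irradiated hosts, the pool of donors and the transgenes. The labels give Male for each BCR::ABL1− library and Female for each BCR::ABL1+ library, so labelled sex and group cannot be told apart. Each library is taken as 1 sample, and the labels do not say whether a library came from 1 mouse. p-values therefore measure the spread between these libraries.

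The class II molecule is a pair of membrane chains, α and β. In mice the I-A molecule is built from H2-Aa and H2-Ab1, and the I-E molecule from H2-Ea and H2-Eb1. Cd74, the invariant chain, fills the groove of new molecules until its last fragment (CLIP) is exchanged for peptide with the help of H2-DM, the product of H2-DMa and H2-DMb1. Ciita is the transactivator that switches these genes on; it does not bind DNA itself but docks on RFX, CREB and NF-Y proteins assembled on the X and Y boxes of the promoters. B cells and dendritic cells hold class II at high levels, and haemopoietic stem and progenitor cells can hold it at lower levels.

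The X and Y boxes are shown first because they are the promoter elements through which Ciita is known to act. Promoter windows from 250 bases before to 50 after the start of a gene were read from RefSeq (GRCm38.p6), and windows were found for 4 of the 7 genes and for 8 of 12 class II genes looked up. The letters searched, on both strands, were GNAAC (part of the X box) followed after 15 to 40 bases by TGATTGG (the Y box, an inverted CCAAT element), and they were chosen after the sequences had been seen. Of the 4 genes with a window, 3 held the pair, and 6 of the 8 class II genes did, against 235 of 32851 windows of the same length (0.715%). H2-DMa, with 2 windows, held neither TGATTGG nor the pair, which says only that these letters are not in those windows. TGATTGG alone was in 7.82% of all windows. The genes with the pair that the results turn on are printed 5′ to 3′ on the strand of the gene, with both motifs in capitals. They lie on chromosome 17, upstream of the transcription start, at chr17:34287852-34287924 (− strand) for H2-Aa, chr17:34305756-34305827 (+ strand) for H2-Eb1, chr17:34153077-34153149 (+ strand) for H2-DMb1 and chr17:34238798-34238867 (+ strand) for H2-Ob.
H2-Aa: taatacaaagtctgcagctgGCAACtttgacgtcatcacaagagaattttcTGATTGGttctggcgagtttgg
H2-Eb1: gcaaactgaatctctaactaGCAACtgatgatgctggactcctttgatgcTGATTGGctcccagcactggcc
H2-DMb1: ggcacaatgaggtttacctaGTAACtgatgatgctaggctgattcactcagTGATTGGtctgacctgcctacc
H2-Ob: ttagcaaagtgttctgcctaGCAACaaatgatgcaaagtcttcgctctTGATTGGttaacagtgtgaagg
The spacing between the motifs was 26 bases in H2-Aa and H2-DMb1, 25 in H2-Eb1 and 23 in H2-Ob, and the Y box began between 63 and 50 bases before the start.

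Library totals were 22804754 to 41832868 counts in BCR::ABL1− and 16150817 to 25070105 in BCR::ABL1+. Levels are given as CPM, the counts scaled to library size with TMM factors. The stem and progenitor markers were present in every library, with Kit at 681 to 800 CPM in BCR::ABL1−, against 323 to 522 in BCR::ABL1+, and the surface markers of T cells (Cd3e, at most 1.02 CPM) and neutrophils (Ly6g, at most 4.88 CPM) were low. Other genes of those lists were not: Nkg7 reached 186 CPM and the granule gene S100a9 732 CPM, and the 8 neutrophil markers summed to 111 to 2417 CPM in BCR::ABL1− and 76.0 to 368 in BCR::ABL1+. Of 11 stem and progenitor markers, 10 were called lower in BCR::ABL1+ (summed level 2840 to 3262 and 1469 to 1971 CPM). Of all tested genes, 29.0% were called lower and 30.6% higher. Calls went both ways in T, NK and innate lymphoid markers (3 lower and 2 higher of 9 tested), mast cell and basophil markers (1 lower and 5 higher of 8) and stroma and endothelium markers (1 lower and 2 higher of 7), and 5 of 8 neutrophil markers were lower. Mitochondrial genes took 0.816 to 1.29% of counts in BCR::ABL1− and 2.26 to 2.97% in BCR::ABL1+. Libraries 6 of both groups carry some identifiers that lie apart from those of libraries 1 to 5, although the sample numbers run on without a gap. No source used here says whether libraries 6 were a batch. BCR::ABL1+ library 6 also stood apart in the class II genes. Values without it are therefore given for the 7 genes, and for related genes where leaving it out changed a call. It was picked by its class II level, the highest of its group in all 7 genes, so leaving it out enlarges their difference by construction. Fold changes and p-values without it show how much 1 library weighs and are not independent tests.

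All 7 class II genes were lower in BCR::ABL1+ LSK cells. Summed over the 7 genes, the level ran from 705 to 1653 CPM (median 1168) in BCR::ABL1− and from 191 to 1137 (median 253) in BCR::ABL1+. Each gene passed edgeR's quasi-likelihood test (Benjamini-Hochberg adjusted p over all tested genes under the threshold of 0.05), with 1.56-fold to 3.25-fold lower levels. So did 29.0% of all tested genes, while 30.6% were called higher, so a lower call by itself was common in these data. The size of the change was less so: 5 of the 7 genes were both called and at least 2-fold lower by the fitted fold change, as were 5.78% of all tested genes. The median log2 fold change of the 7 was -1.40 against 0.07 over all genes. In bulk samples, fewer cells that hold class II and less class II RNA per cell cannot be told apart.

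**Figure D1:**
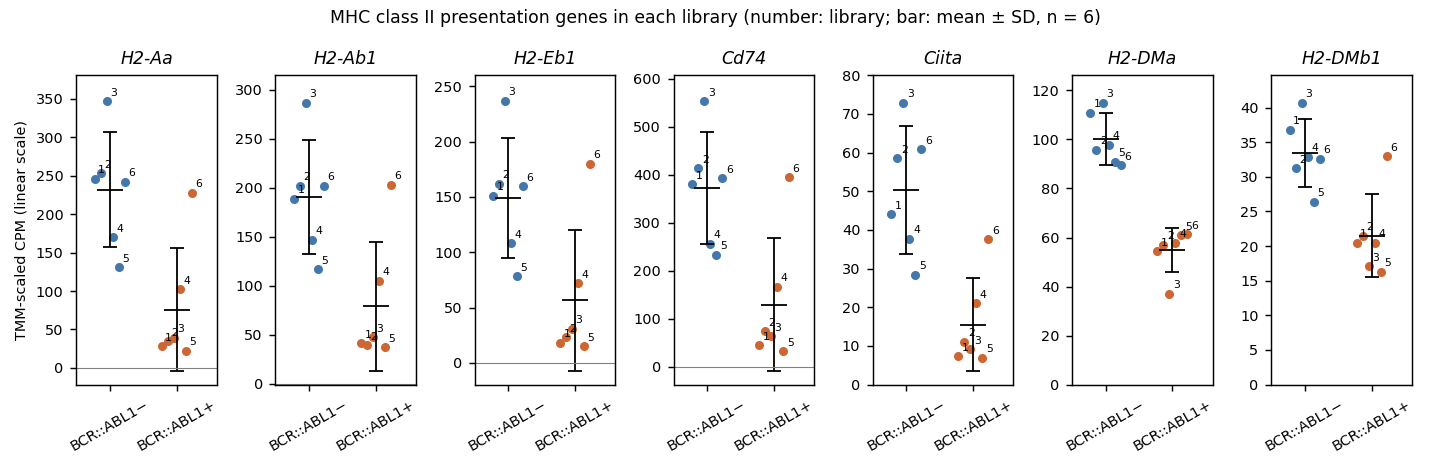
CPM of the 7 class II genes in each library on a linear axis, with BCR::ABL1− in blue, BCR::ABL1+ in orange, the library number beside each point and bars for mean ± SD (n = 6). BCR::ABL1+ library 6 lies within the BCR::ABL1− range in every panel except that of H2-DMa, and library 4 lies between it and the other 4 in H2-Aa, H2-Ab1, H2-Eb1, Cd74 and Ciita.

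H2-Aa (ENSMUSG00000036594), the α chain of I-A, had a lowest, median and highest level of 131, 244 and 347 CPM in BCR::ABL1−, and of 22.5, 37.0 and 228 in BCR::ABL1+. Its level was 3.05-fold lower (95% interval 1.46 to 6.41, log2 -1.61, SE 0.50, edgeR adjusted p = 0.0123). In 5 of 6 BCR::ABL1+ libraries it lay under the lowest BCR::ABL1− library, and library 6 alone made the groups overlap. Without that library, which was picked by its level, the log2 fold change was -2.37 (edgeR adjusted p = 8.88e-05).

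H2-Ab1 (ENSMUSG00000073421), the β chain of the same molecule, stood at 117, 195 and 287 CPM (lowest, median, highest) in BCR::ABL1− and at 37.1, 44.4 and 203 in BCR::ABL1+. The difference was 2.42-fold (95% interval 1.34 to 4.36, log2 -1.27, SE 0.40, edgeR adjusted p = 0.0127). Again 5 of 6 libraries lay under the BCR::ABL1− range, and without library 6 the log2 fold change was -1.83 (edgeR adjusted p = 9.98e-05). Both I-A chains fell. The ratio of H2-Aa to H2-Ab1 in CPM averaged 1.21 (1.13 to 1.31) over BCR::ABL1− and 0.833 (0.608 to 1.13) over BCR::ABL1+ libraries. It was the 1 of 21 ratios between the 7 genes whose groups did not overlap before rounding, and by a narrow margin. These ratios were not tested, and the intervals of the H2-Aa and H2-Ab1 fold changes overlapped, so whether the chains fell unequally is not settled.

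H2-Eb1 (ENSMUSG00000060586), the β chain of I-E, ran through 78.6, 155 and 237 CPM in BCR::ABL1− and 15.04, 27.1 and 180 in BCR::ABL1+. It was 2.64-fold lower (95% interval 1.20 to 5.80, log2 -1.40, SE 0.53, edgeR adjusted p = 0.0338). This was the least secure of the 7 calls. The adjusted p rose to between 0.0514 and 0.0746 when BCR::ABL1− library 1, 2, 3 or 6 or BCR::ABL1+ library 1, 3 or 5 was left out, and it dropped to 0.000214 (log2 -2.25) without BCR::ABL1+ library 6. H2-Ea, the α chain that I-E needs and that C57BL/6 mice do not make, had 0 counts in all 12 libraries, where 3 counts would have been 0.0717 to 0.186 CPM.

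Cd74 (ENSMUSG00000024610), the invariant chain, was the most abundant of the 7 per kilobase of exon. It ranged over 233, 386 and 553 CPM (lowest, median, highest) in BCR::ABL1− and over 31.9, 68.8 and 394 in BCR::ABL1+, which is 2.87-fold lower (95% interval 1.35 to 6.11, log2 -1.52, SE 0.51, edgeR adjusted p = 0.0184). The widest range of the 7 genes in BCR::ABL1+ was its 12.3-fold span, against 2.38-fold in BCR::ABL1−. Without BCR::ABL1+ library 6 the log2 fold change was -2.30 (edgeR adjusted p = 0.000127).

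Ciita (ENSMUSG00000022504), the transactivator, had the largest fitted change of the 7 genes in the main fit, with an interval that overlapped widely with that of H2-Aa. Its lowest, median and highest levels were 28.4, 51.3 and 72.9 CPM in BCR::ABL1− and 6.90, 10.1 and 37.6 in BCR::ABL1+, a 3.25-fold difference (95% interval 1.83 to 5.77, log2 -1.70, SE 0.39, edgeR adjusted p = 0.00163). In 5 of 6 BCR::ABL1+ libraries it was under the lowest BCR::ABL1− library, and without library 6 the log2 fold change was -2.20 (edgeR adjusted p = 3.44e-05). Without that library H2-Aa (log2 -2.37), Cd74 (-2.30) and H2-Eb1 (-2.25) changed more than Ciita, so its rank was not stable. In the pair of libraries numbered 6, Ciita stood at 60.8 CPM without BCR::ABL1 and 37.6 with it, while H2-Aa (242 and 228), H2-Ab1 (202 and 203), H2-Eb1 (160 and 180) and Cd74 (393 and 394) were nearly level. That pair is 1 library a group and carries no test.

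The peptide exchange chains changed less in size and varied less. H2-DMa (ENSMUSG00000037649) had 89.6, 96.8 and 115 CPM in BCR::ABL1− and 37.1, 57.5 and 61.4 in BCR::ABL1+, and was 1.82-fold lower (95% interval 1.55 to 2.14, log2 -0.87, SE 0.11, edgeR adjusted p = 9.35e-06). It was the 1 gene of the 7 whose groups did not overlap, library 6 included, which was so in the same direction for 20.6% of all tested genes. H2-DMb1 (ENSMUSG00000079547) went through 26.4, 32.8 and 40.7 CPM in BCR::ABL1− and 16.3, 20.5 and 33.0 in BCR::ABL1+, a 1.56-fold difference (95% interval 1.24 to 1.96, log2 -0.64, SE 0.15, edgeR adjusted p = 0.00244). Without library 6 the log2 fold changes were -0.91 for H2-DMa and -0.81 for H2-DMb1. The near-identical neighbour of H2-DMb1, H2-DMb2, stood at 7.11 ± 1.65 CPM (SD, n = 6) in BCR::ABL1− and 4.34 ± 2.26 in BCR::ABL1+, and how the authors' counting shared reads between them is not given in the sources used here, so the split is uncertain.

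Per kilobase of exon, Cd74 led in BCR::ABL1− with 221 ± 69.3 CPM (SD, n = 6), followed by H2-Eb1 (76.8 ± 27.9), H2-Ab1 (74.2 ± 22.7) and H2-Aa (61.0 ± 19.7), then H2-DMa (29.0 ± 3.03), H2-DMb1 (19.9 ± 2.90) and Ciita (5.29 ± 1.73). The chains in the middle differed from each other by less than their SD. In BCR::ABL1+ the levels per kilobase were 77.0 ± 82.4 for Cd74, 30.7 ± 25.7 for H2-Ab1, 29.1 ± 32.8 for H2-Eb1, 19.97 ± 21.1 for H2-Aa, 15.9 ± 2.63 for H2-DMa, 12.8 ± 3.57 for H2-DMb1 and 1.63 ± 1.26 for Ciita. There the SD of the class II chains and of Cd74 was about as large as their mean, so of this order only the place of Ciita at the end was clear of its neighbour's spread.

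**Figure D2:**
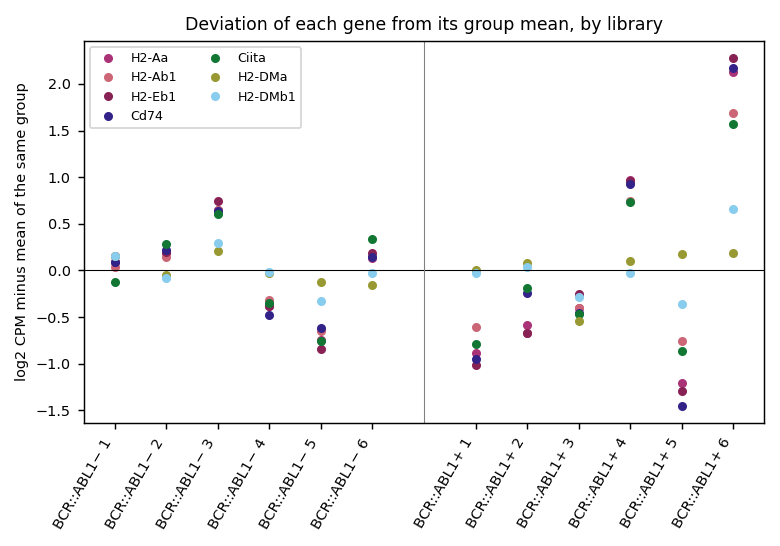
Deviation of log2 CPM from the mean of the same group (vertical axis) in each of the 12 libraries (horizontal axis), 1 point for each of the 7 genes. H2-Aa, H2-Ab1, H2-Eb1, Cd74 and Ciita move together from library to library, while H2-DMa stays nearer to 0 and H2-DMb1 lies in between.

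The libraries of a group differed from each other in class II level, and they did so in a shared order. The SD of log2 CPM within BCR::ABL1− was 0.445 to 0.548 for H2-Aa, H2-Ab1, H2-Eb1, Cd74 and Ciita, against a median of 0.144 over all tested genes. Within BCR::ABL1+ it was 0.960 to 1.37 for these 5 genes, against a median of 0.302, and without library 6 it was 0.619 to 0.895, against 0.290. Once the group means were taken away, the 10 pairs among these 5 genes had Pearson r between 0.962 and 0.997 over the 12 libraries, and between 0.911 and 0.994 without BCR::ABL1+ library 6.

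H2-DMb1 followed the 5 genes less closely (r of 0.815 to 0.834, or 0.554 to 0.603 without BCR::ABL1+ library 6), and H2-DMa hardly (0.270 to 0.363, or 0.0811 to 0.230 without it). The SD of H2-DMa was near that of the median gene, 0.148 in BCR::ABL1− and 0.274 in BCR::ABL1+. All of these points share their libraries, depth and sort, and the correlations are given as a description. In BCR::ABL1+, all 7 genes were highest in library 6, and 5 of the 7 were second highest in library 4. In BCR::ABL1−, the summed level was highest in library 3 (1653 CPM) and lowest in libraries 5 (705 CPM) and 4 (849 CPM).

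Of 13435 other genes with a mean log2 CPM of at least 1, the 5 whose deviations from the group means were most like the mean deviation of the 7 were Pld4 (Pearson r = 0.972 over 12 libraries), Mycl (0.961), Tlr3 (0.958), Naaa (0.955) and Marchf1 (0.946). Pld4 encodes an endolysosomal exonuclease, Tlr3 an endosomal receptor of double-stranded RNA and Naaa a lysosomal amidase. With the group means kept, the 5 were Mycl (0.985), Tlr3 (0.983), Pld4 (0.980), Clec9a (0.977) and Marchf1 (0.966). Tlr3 had a median of 23.2 CPM in BCR::ABL1− and 2.15 in BCR::ABL1+, with 20.2 in BCR::ABL1+ library 6 and 9.22 in library 4.

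Among the other class II chains, 3 of the 4 tested were called lower and none higher, against 29.0% lower and 30.6% higher of all tested genes. H2-Ob, the β chain of H2-DO, which restrains H2-DM, changed most: its level was 59.99 to 79.1 CPM in BCR::ABL1− and 15.7 to 24.0 in BCR::ABL1+, 3.45-fold lower (95% interval 2.95 to 4.03, log2 -1.79, SE 0.10, edgeR adjusted p = 2.12e-08). The groups of H2-Ob did not overlap, and library 6 stood at 22.3 CPM among the others. Its partner H2-Oa was at 7.59 to 9.57 and 3.21 to 5.92 CPM (log2 -0.93, edgeR adjusted p = 6.00e-05), likewise without overlap. A lack of overlap in that direction was seen in 20.6% of all tested genes.

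H2-DMb2 was called lower (log2 -0.71, edgeR adjusted p = 0.0418), a call that was lost, with adjusted p of 0.0516 to 0.102, when any 1 library other than BCR::ABL1− 5 or BCR::ABL1+ 6 was left out. Without the latter, its log2 fold change was -1.04 (edgeR adjusted p = 0.00138). H2-Eb2, a further E β chain, was at 1.36 to 2.58 CPM in BCR::ABL1−, against 0.453 to 2.91 in BCR::ABL1+ and was not called (log2 -0.70, edgeR adjusted p = 0.118). Without BCR::ABL1+ library 6 it was called lower (log2 -1.14, edgeR adjusted p = 0.00610).

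Of 7 genes for the factors on which Ciita docks, 5 were called lower and none higher, against 29.0% lower and 30.6% higher of all tested genes. The RNA of all 3 subunits of RFX, the X-box complex, fell: Rfx5 was at 52.1 to 56.5 CPM in BCR::ABL1−, against 26.1 to 36.4 in BCR::ABL1+ (log2 -0.87, SE 0.08, edgeR adjusted p = 4.55e-07), with log2 fold changes of -0.81 for Rfxank (edgeR adjusted p = 0.000477) and -0.85 for Rfxap (0.000452). Of the NF-Y subunits that bind the Y box, Nfya fell by 0.83 on the log2 scale (edgeR adjusted p = 5.04e-07) and Nfyc by 0.23 (0.0158), while Nfyb (log2 -0.10, adjusted p = 0.172) was not called, nor was Creb1 (log2 -0.11, adjusted p = 0.184). Nfyc lost its call with both libraries numbered 6 left out (adjusted p = 0.0557) and with upper-quartile factors (0.0931). In Rfx5, Rfxank, Rfxap and Nfya the groups did not overlap, which was so in the same direction for 20.6% of all tested genes. Rfx5 was lowest in BCR::ABL1+ library 6, where Ciita was highest.

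**Figure D3:**
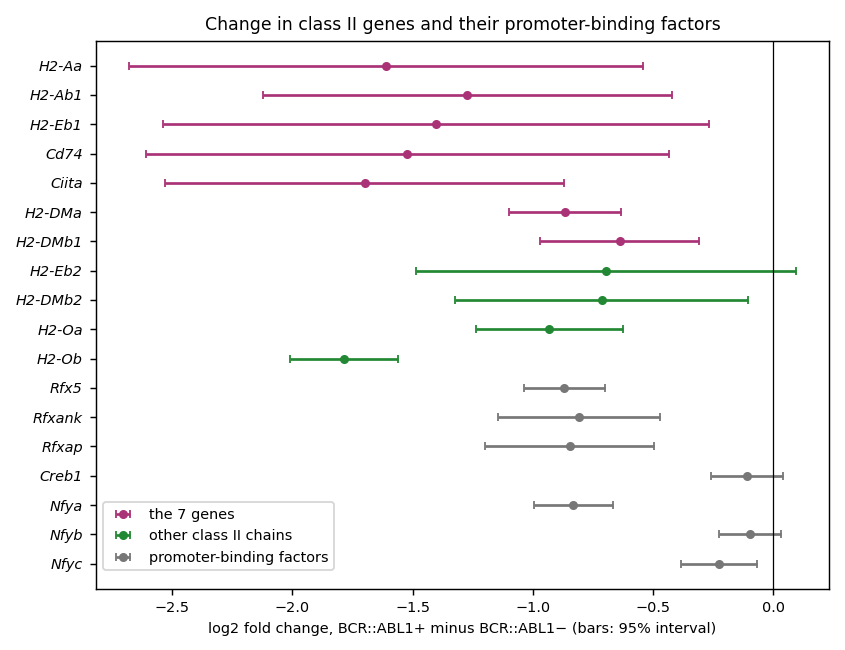
Log2 fold change of BCR::ABL1+ over BCR::ABL1− (horizontal axis, 0 marks no change, bars are 95% intervals from the edgeR fit, 6 libraries a group) for the 7 genes, the other class II chains and the factors that bind their promoters. All points lie left of 0, and the intervals of H2-Eb2, Creb1 and Nfyb cross it.

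Of 11 genes listed as upstream of Ciita, 4 were called lower and 3 higher, shares near those of all tested genes (29.0% lower and 30.6% higher), and their median log2 fold change was -0.07. Ifngr1 was at 112 to 142 CPM in BCR::ABL1−, against 183 to 408 in BCR::ABL1+ (log2 1.15, SE 0.16, edgeR adjusted p = 2.55e-05), and Ifngr2 rose by a log2 of 0.30 (edgeR adjusted p = 0.00129). The receptor kinases Jak1 (log2 -0.54, edgeR adjusted p = 2.18e-05) and Jak2 (log2 -0.76, 4.53e-06) fell, as did Irf1 (log2 -0.94, SE 0.10, 1.43e-06), a transcription factor induced by interferon.

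Irf8, a factor of dendritic and monocyte lineages, was at 132 to 202 and 24.2 to 104 CPM (log2 -1.47, SE 0.27, edgeR adjusted p = 0.000259), with library 6 the highest of BCR::ABL1+. Socs1, an inhibitor of JAK signalling, was called higher (log2 0.53, edgeR adjusted p = 0.0323) but not when BCR::ABL1− library 1, 2, 5 or 6 or BCR::ABL1+ library 2, 3 or 5 was left out (adjusted p of 0.0535 to 0.0761). Usf1, Spi1, Irf4 and Prdm1 were not called, though Irf4 was called lower without BCR::ABL1+ library 6 (adjusted p = 0.0437).

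Of 8 endosomal processing genes, 5 were called higher, none lower and 3 neither way (median log2 fold change 0.61 against 0.07 over all genes). The shares over all tested genes were 30.6% higher and 29.0% lower. Ctsl, cathepsin L, stood at 12.9 to 15.6 CPM in BCR::ABL1−, against 26.97 to 85.3 in BCR::ABL1+ (log2 1.85, SE 0.22, edgeR adjusted p = 6.03e-06). Ctsz (log2 0.88, edgeR adjusted p = 1.33e-05), Lgmn (0.87, 0.00129), Ctsd (0.65, 0.000166) and Ctsb (0.56, 0.00987) were the others. Ctss, the cathepsin that trims Cd74 in B cells and dendritic cells, was at 39.0 ± 6.00 and 43.7 ± 10.3 CPM (log2 0.16, edgeR adjusted p = 0.373), and Ifi30 and Cst3 were not called either. Without BCR::ABL1+ library 6, Cst3 was called lower (log2 -0.30, adjusted p = 0.0415).

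Of 6 genes of class II turnover and sorting, 4 were called lower, against 29.0% of all tested genes. These 4 were Marchf1 (log2 -0.88, edgeR adjusted p = 0.0414) and Marchf8 (log2 -0.38, 0.0310), which are ubiquitin ligases of the family that takes class II off the surface, and the adaptor subunits Ap1m1 (log2 -0.35, 0.000110) and Ap2m1 (log2 -0.32, 0.00296). Marchf1 lost its call when any 1 library except BCR::ABL1+ 6 was left out (adjusted p of 0.0514 to 0.0874), and without that library its log2 fold change was -1.41 (adjusted p = 7.21e-05). Marchf8 lost it without BCR::ABL1− library 1, 5 or 6 or BCR::ABL1+ library 3, 4 or 5 (0.0512 to 0.0688). None of the costimulatory genes Cd80, Cd86, Cd40 and Icosl was called, and Icosl was called lower without BCR::ABL1+ library 6 (adjusted p = 0.0460).

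Cd74 is also a surface receptor for the cytokine MIF. Of 5 genes of that pathway, 4 were called higher and none lower, against 30.6% higher and 29.0% lower of all tested genes. These 4 were Mif (116 to 164 CPM in BCR::ABL1−, 185 to 294 in BCR::ABL1+, log2 0.62, edgeR adjusted p = 0.000227), its homologue Ddt (log2 1.08, 6.07e-06) and the chemokine receptors Cxcr2 (log2 0.86, 0.00598) and Cxcr4 (log2 0.50, 0.00232). Cd44, the co-receptor of Cd74, was at 315 ± 23.0 and 290 ± 53.2 CPM (log2 -0.12, edgeR adjusted p = 0.338), and was called lower without BCR::ABL1+ library 2 (adjusted p = 0.0344). In BCR::ABL1+, Mif and Cd74 were both highest in library 6.

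For comparison, of 10 class I presentation genes 8 were called lower and 1 higher, with a median log2 fold change of -0.62. The shares over all tested genes were 29.0% lower and 30.6% higher. Nlrc5, the class I transactivator related to Ciita, was at 208 to 272 CPM in BCR::ABL1−, against 91.3 to 142 in BCR::ABL1+ (log2 -1.06, SE 0.11, edgeR adjusted p = 1.18e-06), with no overlap. H2-K1 (log2 -0.93), Tap1 (-1.01), Tap2 (-0.98) and Tapbp (-0.73) had no overlap either, as was so in the same direction for 20.6% of all tested genes. Psmb8, an immunoproteasome subunit, was the 1 called higher (log2 0.27, edgeR adjusted p = 0.0310). It lost that call without BCR::ABL1− library 2, 4, 5 or 6 or BCR::ABL1+ library 1, 3 or 6 (adjusted p of 0.0520 to 0.0759), and Psmb9 was called lower without BCR::ABL1+ library 6 (adjusted p = 0.00130). A difference between class I and class II was not tested.

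**Figure D4:**
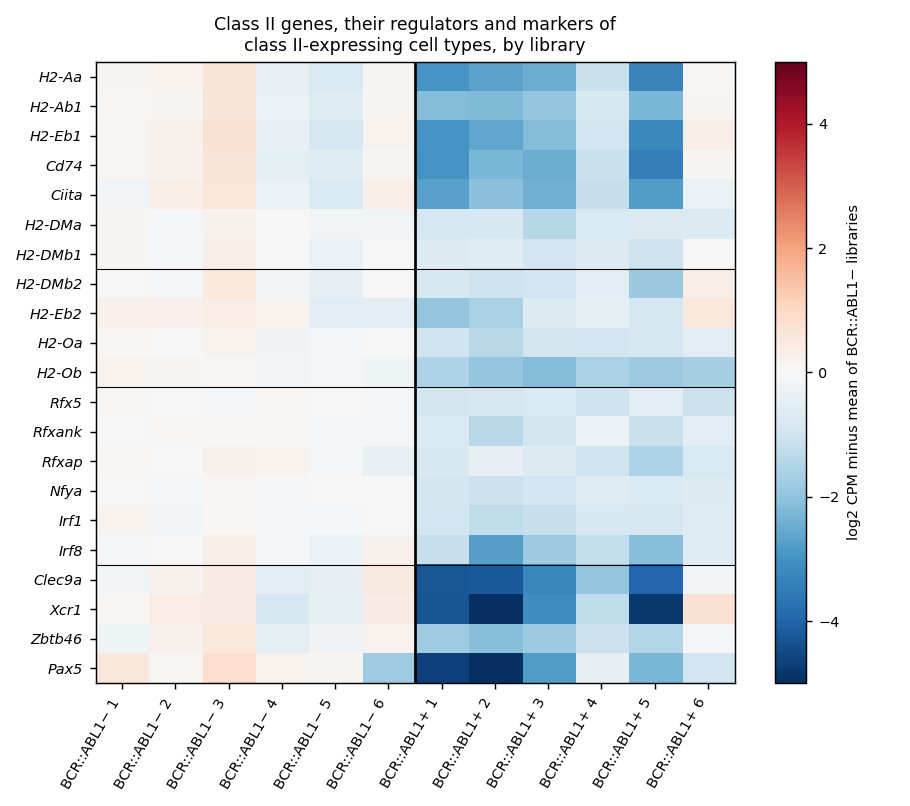
Log2 CPM of each gene minus its mean over the BCR::ABL1− libraries (colour scale), for the 12 libraries (columns) and, from the top, the 7 genes, other class II chains, factors upstream, and markers of dendritic cells (Clec9a, Xcr1, Zbtb46) and B cells (Pax5). BCR::ABL1+ libraries 4 and 6 are paler than the other 4 in H2-Aa to Ciita and in the markers, while H2-Ob and Rfx5 are about as low in library 6 as in the rest.

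Many markers of dendritic cells and B cells, which hold much class II, were also lower, but not all. Of 10 dendritic cell markers, 8 were called lower and 1, Clec10a, higher, against 29.0% lower and 30.6% higher of all tested genes. Clec9a, a receptor of conventional dendritic cells, was at 10.1 to 20.1 CPM in BCR::ABL1− (log2 -2.12, edgeR adjusted p = 0.00941) and at 0.680 to 1.47 CPM in BCR::ABL1+ libraries 1, 2, 3 and 5, with 3.69 in library 4 and 13.5 in library 6. Xcr1 was at 7.08 to 17.1 CPM in BCR::ABL1− and at 0.567, 0, 1.41, 5.32, 0.375 and 21.7 in BCR::ABL1+ libraries 1 to 6 (log2 -1.46, edgeR adjusted p = 0.158).

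As for Cd74, libraries 6 and 4 were the highest of BCR::ABL1+ in both markers, an order that 6 of the 10 dendritic markers had. The summed level of the 9 dendritic markers other than Flt3, which LSK cells also express and which was left out after its values were seen, was 55.3 to 96.4 CPM in BCR::ABL1− and 28.5 to 93.4 in BCR::ABL1+, with library 6 highest and library 4 next at 47.3. With Flt3 it was 466 to 570 and 240 to 394. In BCR::ABL1+ library 2 was then highest (394 CPM), with 285 in library 6 and 244 in library 4. Over BCR::ABL1−, the sum without Flt3 was lowest in libraries 4 (55.3 CPM) and 5 (62.2) and highest in library 3 (96.4), as was the sum of the 7 genes. With Flt3 the order differed: library 1 was highest (570 CPM) and library 6 lowest (466). No dendritic marker was at 0 in all libraries of a group, and Siglech, a plasmacytoid marker, was at most 1.02 CPM in BCR::ABL1+.

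Of 9 B cell markers, 5 were called lower, none higher and 4 neither way, against 29.0% lower and 30.6% higher of all tested genes. Cd79b was among those not called (log2 0.21, edgeR adjusted p = 0.185). Their summed level was 137 to 229 CPM in BCR::ABL1− and 91.6 to 157 in BCR::ABL1+, with library 4 (157 CPM) and library 6 (146 CPM) highest. Cd37 alone stood at 104 to 123 CPM in BCR::ABL1− and at 56.2 to 71.9 in BCR::ABL1+, so this 1 gene made up much of the sum. Pax5, the B-lineage factor, was at 11.1 CPM in BCR::ABL1+ library 4 and 7.75 in library 6, and its lowest level in that group was 0. In BCR::ABL1− library 6, Cd79a was at 2.34 CPM and Pax5 at 4.30, the lowest of that group, while H2-Aa stood at 242 CPM there, near the median of 244. Of 10 monocyte and macrophage markers, 3 were called higher, near the 30.6% of all tested genes, and none lower. Their sums were 290 to 559 CPM in BCR::ABL1− and 476 to 859 in BCR::ABL1+. The part that dendritic cells, B cells or monocytes in the sort had in the class II difference was not tested.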

How the data were processed

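Bulk RNA-seq of 12 libraries was analysed. The values the authors deposited are raw counts, 1 file a library, keyed by Ensembl gene and not normalized. For the steps before that, the submitters' processing notes name FastQC 0.11.9, fastp 0.23.2, STAR 2.7.10a, featureCounts 2.0.1, DESeq2 1.36.0 and the mouse build GRCm39 (mm39), while the methods of the study name Trim Galore!, HISAT2, featureCounts and hg38. Which of these made the files is not settled, and annotation, strandedness and the handling of multimapping reads are not given in the sources used here, so the counts of near-identical class II genes are uncertain. Human BCR::ABL1 was not counted.

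Identifiers were matched to symbols in GENCODE M21 (52073 of 56748), whose build is GRCm38. Coordinates are given only for the printed promoter stretches, on GRCm38.p6. Exon lengths came from all annotated exons of that release, and promoter sequences from RefSeq (GRCm38.p6). H2-Ea, Marchf1 and Marchf8 were looked up under their older names, H2-Ea-ps, March1 and March8. No entry lacked a gene name (0), and 0 pairs of libraries were identical (the closest pair had a chi-square of 3.777 per degree of freedom).

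Differential expression used edgeR 4.0.16 in R 4.3.3 (quasi-likelihood test, TMM factors, filterByExpr) on all 18438 genes tested, and p-values were adjusted by Benjamini-Hochberg, with calls at 0.05. Log2 CPM had a prior count of 2. The 95% intervals come from that fit. Depth sets counting error only, and PCR copies are not independent molecules, so the floor of 3 counts covers counting error only. limma 3.58.1 and DESeq2 1.42.0 gave alternatives, and tables and plots used Python 3.11.15, pandas 2.3.3, numpy 2.4.6, scipy 1.17.1 and matplotlib 3.10.9. The edgeR step was tested on simulated data.

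The genes named were the 7 class II genes, the genes of each related list that passed the test or its most abundant members, and the 5 nearest genes by each of both correlation measures; sums without Flt3 and the motif letters were chosen after values or sequences were seen. The members and lists were chosen with earlier results of these data known. Groups and library numbers came from the labels. The alternatives covered normalization factors, filters on low counts, other tests, a replicate block and leaving out libraries. Human datasets were not analysed here, and some genes of the lists are not reported here.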

Additional observations from a re-analysis of the deposited data

Results flagged for a closer look

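Within each group of 6 libraries, the highest or lowest CPM was marked where its gap to the next, on the linear scale, was too large a part of the group's range by Dixon's test at 95%. This held in 9 of 78 groups of values, where about 3.9 would be expected by chance if the groups were independent. They were not, since the class II genes vary together and the sums contain them, so the 9 cannot be weighed against the 3.9. The marks also depend on the scale, and log2 CPM was not used for them. For 5 of the 9 the library was BCR::ABL1+ library 6. That library was far above the other 5 of its group in H2-Eb1 (180 CPM, next 72.1), Cd74 (394 CPM, next 167), H2-DMb1 (33.0 CPM, next 21.5), the sum of the 7 class II genes (1140 CPM, next 546) and the sum of the dendritic markers without Flt3 (93.4 CPM, next 47.3). BCR::ABL1+ library 3 lay far below the others in H2-DMa (37.1 CPM, next 54.3). BCR::ABL1+ library 2 was far above its group in the summed mast cell and basophil markers (2280 CPM, next 965) and in the summed stroma and endothelium markers (752 CPM, next 355). BCR::ABL1− library 4 was far above its group in the summed neutrophil markers (2420 CPM, next 497), and its 7 class II genes summed to 849 CPM, the second lowest of that group. What set these libraries apart was not tested.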

How the results depend on the processing

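The log2 fold changes of the 7 genes were negative in all 21 alternatives. With 1 library left out they ran from -2.37 to -1.42 for H2-Aa, -1.83 to -1.12 for H2-Ab1, -2.25 to -1.20 for H2-Eb1, -2.30 to -1.32 for Cd74, -2.20 to -1.54 for Ciita, -0.91 to -0.78 for H2-DMa and -0.81 to -0.57 for H2-DMb1, with 6 to 7 of the 7 called lower; H2-Eb1 was the gene that lost its call. In the alternatives that kept all libraries or left out both libraries numbered 6, all 7 remained called. No pairing of the groups by library number was seen: the deviations of libraries with the same number had correlations of -0.125 to 0.0679, and 1 of 6 matched its own number best. Whether libraries of the same number shared a batch was not tested. With the number as a replicate block, the log2 fold changes were -2.11 (H2-Aa), -1.55 (H2-Ab1), -1.95 (H2-Eb1), -2.06 (Cd74), -1.91 (Ciita), -0.88 (H2-DMa) and -0.66 (H2-DMb1), with 7 of 7 called.

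Of 1154 values of 55 related genes, 1071 kept their direction and side of the threshold, 55 lost and 13 gained a call, and 15 changed sign, all 15 for genes that were not called. These were Spi1 with no filter on low counts (-0.0114), Prdm1 with 1 library left out (-0.4468 to 0.0512), Ifi30 without BCR::ABL1+ library 6 (-0.0653, up to 0.2564 without another library) and without both libraries 6 (-0.0705), Cst3 with upper-quartile factors (0.0340), with a filter of 1 CPM (0.0047) and with 1 library left out (-0.2961 to 0.0512), and Cd83 with limma-voom (-0.0427), with the block (-0.0422), without both libraries 6 (-0.3816) and without BCR::ABL1+ library 6 (-0.3657, up to 0.5243 without another library). Counts of calls moved by over 1.5 times for turnover and sorting genes called lower (2 with upper-quartile factors, 2 to 4 with 1 library left out) and for class I genes called higher (0 with no filter and without both libraries 6, 0 to 1 with 1 library left out). Smaller moves over all alternatives were 2 to 4 other class II chains called lower (3 in the report), 4 to 5 promoter-binding factors lower (5), 4 to 5 upstream genes lower (4) and 2 to 4 higher (3), and 8 to 9 class I genes lower (8). With 1 library left out, 0 to 1 processing, costimulatory and MIF pathway genes were called lower.

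Depth limits the lowest genes: 3 counts are 0.0717 CPM in the deepest and 0.186 CPM in the shallowest library. Labelled sex cannot be told apart from BCR::ABL1, and RNA per cell cannot be told apart from the share of cells.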
